A study of Homo sapiens with 8 samples.

Results

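The genes described here are the amino acid transporters of the human solute carrier families SLC1, SLC3, SLC6, SLC7, SLC36, SLC38 and SLC43, measured as newly made RNA in U2OS, an osteosarcoma cell line. Members were taken by the family number in the gene symbol, which gave 59 of the 19414 coding genes listed. The assay was TT-seq, in which cells build the base analogue 4-thiouridine into RNA and the labelled RNA is sequenced. The genotype labels name MYC O/E (overexpression of the transcription factor MYC, called MYC here), Zab, Zab + MYC O/E (called MYC_Zab here) and WT, with 2 libraries each. No label gives the construct behind Zab, the time of labelling, a dose, or whether replicates are separate cultures. The p-values therefore speak of the variation among these 8 libraries alone, and that may be technical. The series title links MYC and FACT, a histone chaperone, to Z-DNA, and the comparisons ask how MYC, Zab and both differ from WT.

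These carriers move amino acids across the plasma membrane and the membranes of lysosomes and vesicles. Light chains of the SLC7 family reach the cell surface only when linked to a heavy chain of the SLC3 family, and together they exchange one amino acid for another. Most carriers of the SLC1, SLC6 and SLC38 families use sodium to accumulate their substrates. Some of the SLC36 family use protons, and those of SLC43 let substrates pass down their gradient. In proliferating cells, uptake of glutamine and leucine feeds protein synthesis and the kinase complex mTORC1. Amino acid shortage raises transcription of several of these genes through the kinase GCN2 and the transcription factor ATF4, and several are known targets of MYC.

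Levels are CPM, a gene's exon reads per 1e6 reads of its library, after TMM scaling, which sets libraries level on the bulk of their genes. Of the 59 members, 26 had enough reads to be tested, among 11985 tested genes. The libraries held between 1839960 and 4072059 reads in coding exons. Those labelled Zab stood apart, with 6.44 and 6.66 such reads per 100 tags, against 13.1 to 13.8 in the other 6 libraries. The gene MYC averaged 6592 ± 20.2 CPM in libraries labelled MYC, 966 ± 69.5 in Zab, 762 ± 14.2 in MYC_Zab and 764 ± 17.1 in WT (SD, n = 2 each), so the label of overexpression was not borne out in MYC_Zab. ADAR, an RNA-editing enzyme with domains for Z-form nucleic acids, commonly called Zαβ, had 455 ± 13.1, 543 ± 33.9, 32311 ± 41.8 and 33906 ± 11.6 CPM in the same order. Because the gene MYC goes against the label in MYC_Zab, and ADAR was high in WT but not in Zab, groups are named by label only. Of 12 mesenchymal and bone markers, VIM, SPARC, COL1A1, FN1, CDH2 and RUNX2 had reads in every library, at no less than 2.09 CPM. COL1A2, ALPL, BGLAP and IBSP reached at most 2.36 CPM in any library, and TWIST1 and SP7 had 0 reads. The 12 summed to 2437 to 2488 CPM in libraries labelled MYC, 4310 to 4554 in Zab, 3504 to 3613 in MYC_Zab and 3713 to 3844 in WT. Epithelial, blood and endothelial markers summed to at most 10.01, 1.56 and 2.09 CPM in any library, and neural markers to between 10.6 and 26.6 CPM. The part of marker sums or of the yield of coding reads in the results below was not tested. In RNA from a whole culture, fewer expressing cells and less RNA per cell cannot be told apart.

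The promoters of the members that could be matched were read for 2 motifs. Those that held a motif are shown for members higher in libraries labelled MYC than in WT. The E-box CACGTG is the best known binding site of MYC, and TGATGNAA is the core of the amino acid response element bound by ATF4. Sequences are from RefSeq on build GRCh38.p14, which matched 44 of the 59 members and 21 of the 26 tested. The window ran from 250 bases before the annotated start to 50 after it, on both strands. No annotated start was matched to that of the transcript counted, which is placed on hg19. A window, also one with a motif below, may therefore belong to another transcript of the gene. Motifs are thus set beside the calls by gene, and not by the transcript counted. CACGTG stood in 3 of the 21 tested members, against 8.88% of the 15842 coding promoters. These were SLC7A5, where the first base of the motif lies 130 bases before the start, SLC43A1, at 112 bases before, and SLC38A7, at 14 after. TGATGNAA stood in 4 of the 21, against 2.53% of coding promoters. It began 220 bases before the start of SLC1A3 and 4 before that of SLC38A1, and at base 37 after the start of SLC3A2 and base 7 after that of SLC7A1. These 4 were among the 10 matched members higher in libraries labelled MYC than in WT, and the 4 matched members that were lower and the 7 not called held none. In Zab over WT, 3 of the 8 matched members called higher held TGATGNAA. So did 1 of the 12 not called, and the 1 matched member called lower did not. The tested members without a matched window were SLC7A11, lower in MYC than in WT, and SLC43A3, SLC6A6, SLC7A2 and SLC6A15, all higher. No tested member held both motifs. A match is a description of letters and not of binding. In the 250 bases upstream of 3 genes and the 30 bases around 3 sites, capitals mark the motif, read 5′ to 3′ on the gene's strand, and in SLC3A2 the motif lies on the opposite strand and is shown as its reverse complement. SLC7A5 is shown from chr16:87869508-87869757 on the minus strand, SLC43A1 from chr11:57515703-57515952 on the minus strand and SLC1A3 from chr5:36596338-36596587 on the plus strand. The sites are from chr11:62881719-62881748 on the plus strand, chr13:29595663-29595692 on the minus strand and chr12:46266502-46266531 on the minus strand.
SLC7A5: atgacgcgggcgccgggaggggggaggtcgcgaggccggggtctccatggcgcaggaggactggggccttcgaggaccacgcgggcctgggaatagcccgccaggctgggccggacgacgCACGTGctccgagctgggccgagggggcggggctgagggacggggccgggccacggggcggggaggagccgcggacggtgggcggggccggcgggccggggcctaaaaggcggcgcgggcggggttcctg
SLC43A1: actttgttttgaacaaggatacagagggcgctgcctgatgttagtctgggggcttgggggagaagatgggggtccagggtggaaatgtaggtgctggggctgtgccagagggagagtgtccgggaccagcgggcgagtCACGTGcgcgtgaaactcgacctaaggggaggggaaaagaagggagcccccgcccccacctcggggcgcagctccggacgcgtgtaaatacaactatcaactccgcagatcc
SLC1A3: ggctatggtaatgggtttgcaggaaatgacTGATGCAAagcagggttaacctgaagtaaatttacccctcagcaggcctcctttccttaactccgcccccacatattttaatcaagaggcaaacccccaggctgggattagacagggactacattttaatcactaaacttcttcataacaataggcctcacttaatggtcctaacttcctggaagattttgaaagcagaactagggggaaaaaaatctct
SLC3A2: gtaatgtgcaggactccTTACATCAgctcc
SLC7A1: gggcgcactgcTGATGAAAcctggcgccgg
SLC38A1: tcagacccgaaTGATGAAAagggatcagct

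Levels differed widely between members. Per kb of counted exon, SLC7A5, SLC1A5 and SLC3A2 had the highest levels of the 26, at means of 237, 204 and 150.4 CPM per kb over the 8 libraries, and SLC43A3, SLC38A2, SLC6A8 and SLC7A1 followed at 97.8, 87.2, 68.2 and 36.9. The other 19 tested members lay between 0.557 and 19.6 CPM per kb. Summed over the members, the level was 5271 ± 2.98 CPM in libraries labelled MYC, 4036 ± 182 in Zab, 3443 ± 2.07 in MYC_Zab and 3298 ± 33.9 in WT (SD, n = 2 each). The sum in MYC was thus 1.60 times that in WT, in Zab 1.22 times and in MYC_Zab 1.04 times, and the 4 groups did not overlap. On the deposited scale, which keeps a factor per library of unknown basis, the ratios were 2.26, 0.804 and 1.26, so that Zab was below WT there. SLC7A5 alone made up 34.1% of the sum in MYC, 26.8% in Zab, 21.3% in MYC_Zab and 20.9% in WT. Without it the sums were 3472, 2953, 2711 and 2609 CPM in the same order.

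**Figure D1:**
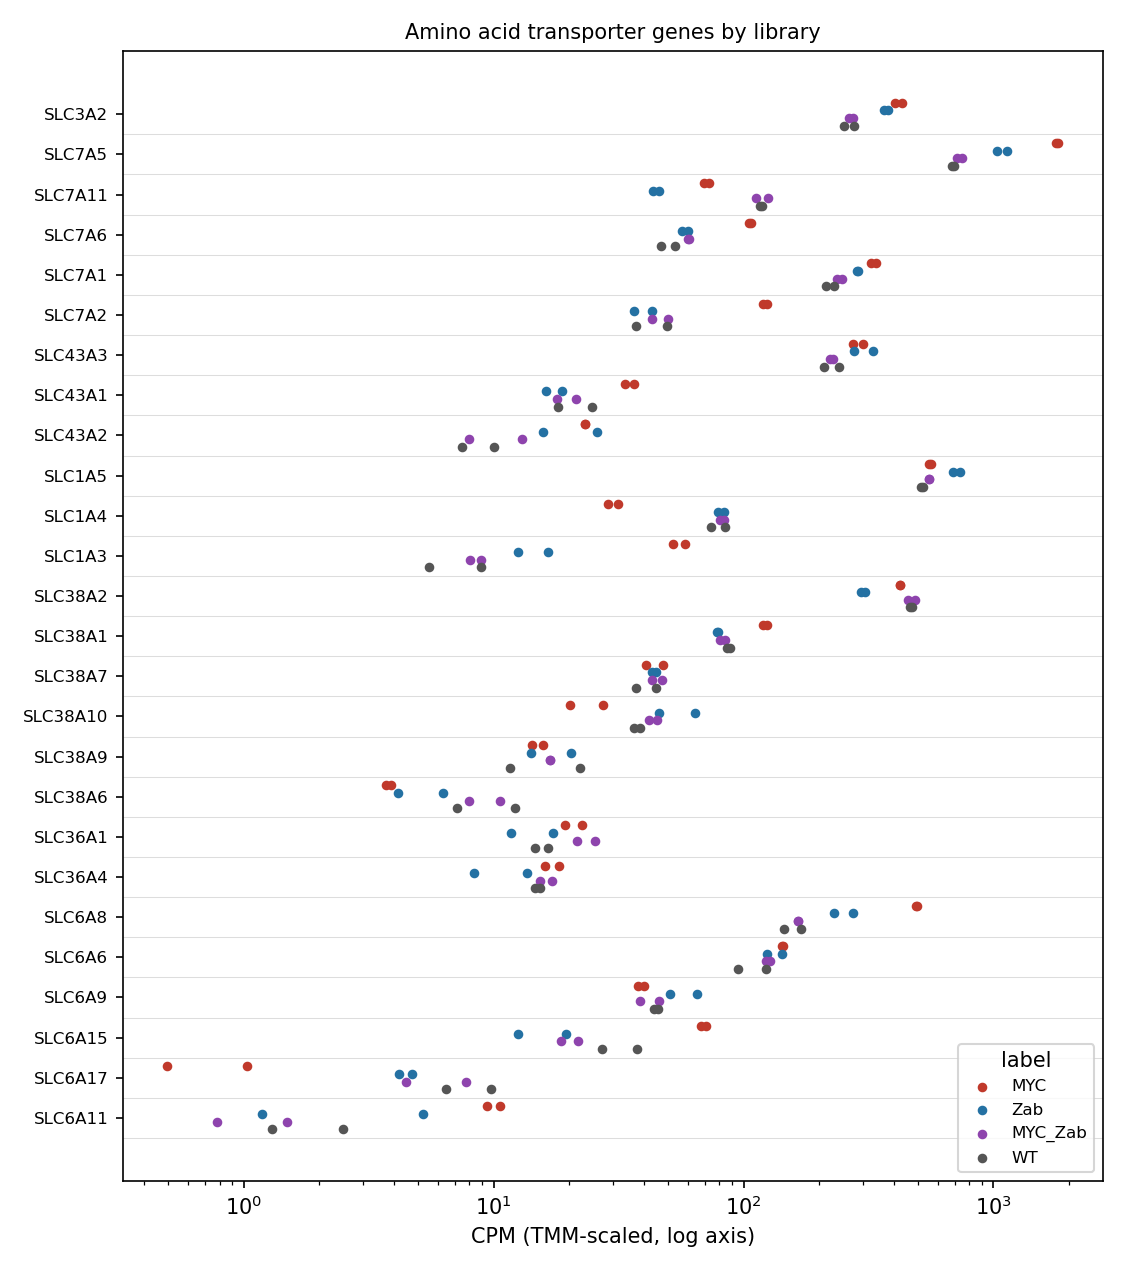
Level of each of the 26 tested members in each library, in CPM after TMM scaling on a log axis, with 1 point per library and labels ordered MYC, Zab, MYC_Zab and WT within each gene. The points of MYC_Zab and WT lie close together for nearly every gene, while those of MYC stand right of WT for SLC7A5, SLC6A8 and SLC1A3 and left of it for SLC1A4 and SLC7A11.

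**Figure D2:**
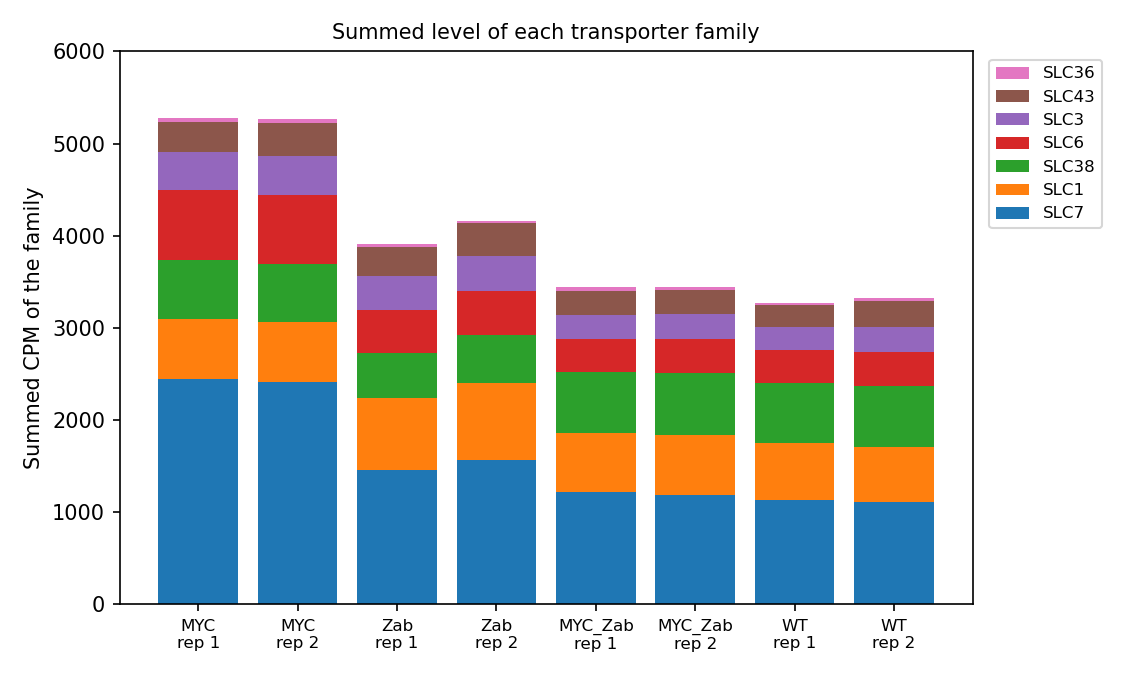
Summed CPM of each transporter family in each library, stacked, with the 4 labels in the order MYC, Zab, MYC_Zab and WT. The SLC7 family gives the largest block in every library, at a mean of 2432 CPM in MYC, 1514 in Zab, 1200.5 in MYC_Zab and 1123 in WT.

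By family, the SLC7 carriers averaged 2432 CPM in libraries labelled MYC and 1123 in WT, and the SLC6 carriers 757 and 357. The SLC3 sum was 417 in MYC and 266 in WT, and that of SLC43 was 345 and 256. SLC1 and SLC38 were nearer to WT in MYC, with 649 against 605 CPM and 633 against 661. In libraries labelled Zab, SLC1 had the highest family sum of the 4 labels, at 809.8 CPM, and SLC38 the lowest, at 504. The deposited scale turned the first of these, with a summed SLC1 value of 361 in Zab as the lowest of the 4 labels, against 411 in WT, and it put SLC38 in MYC above WT, at 608 against 449.

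Newly made RNA of amino acid carriers was more often higher than lower in libraries labelled MYC. Of the 26 tested members, 14 rose and 5 fell relative to WT (limma adjusted p under 0.05), where 44.1% of all tested genes were called, 22.2% higher and 21.9% lower. The median log2 change was 0.41 over the tested members and -0.01 over all tested genes. Those that rose were SLC1A3, SLC6A11, SLC6A8, SLC7A2, SLC7A5, SLC43A2, SLC6A15, SLC7A6, SLC43A1, SLC3A2, SLC7A1, SLC38A1, SLC6A6 and SLC43A3, and those that fell were SLC6A17, SLC1A4, SLC38A6, SLC7A11 and SLC38A10. On the deposited scale, where the median gene shifted by log2 0.47, the calls were 18 higher and 2 lower, and 18 of the 26 members stood above the median gene, while SLC7A11, SLC38A10 and SLC38A6 were no longer called. When both WT libraries were averaged to 1 sample, and both MYC_Zab libraries likewise, 16 members were called, without SLC38A10, SLC43A1 and SLC38A6. Leaving out 1 library at a time, 13 of the 19 calls were kept in all 8 fits.

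In libraries labelled Zab, the leucine exchanger SLC7A5, its heavy chain SLC3A2, the glutamine carrier SLC1A5 and the arginine carrier SLC7A1 were higher than in WT after TMM scaling, and the glutamine carrier SLC38A2 and the cystine exchanger SLC7A11 were lower. No member was called higher on the deposited scale. Relative to WT, 10 of the 26 rose and 3 fell, where 49.6% of all tested genes were called, 22.5% higher and 27.1% lower. The median log2 change was 0.16 over the members and -0.08 over all genes. SLC43A2, SLC1A3, SLC6A8, SLC7A5, SLC38A10, SLC3A2, SLC1A5, SLC43A3, SLC7A1 and SLC6A6 rose, and SLC7A11, SLC6A15 and SLC38A2 fell. The direction of the rises depends on the scaling: with library totals 8 were higher and 4 lower, and on the deposited scale, where the median gene shifted by log2 -0.63, 0 were higher and 16 lower. Relative to that median, 16 of the 26 members stood above it. SLC6A9 was called higher without Zab replicate 2 (limma adjusted p = 0.0175), and SLC36A4 lower without Zab replicate 1 (limma adjusted p = 0.0400). SLC6A6 and SLC38A10 were not called with library totals, with no filter on low values, or with those pairs averaged.

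Between libraries labelled MYC_Zab and WT no member passed the test. Of the 26, 0 were called, where 0.576% of all genes were (0.134% higher and 0.442% lower), 2 had an unadjusted p under 0.05, and the smallest limma adjusted p was 0.362, for SLC6A15. edgeR's quasi-likelihood test and DESeq2 on recovered reads also called 0 members. Across all genes, pairs of a MYC_Zab with a WT library differed by a chi-square per gene of 2.705 to 2.814, beside 1.99 to 2.05 between replicates, whereas other pairs of groups had 25.5 to 43.01. On the deposited scale 10 members were higher and 0 lower, with the median gene at log2 0.27.

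The direct comparison of the MYC and Zab labels, which both had low ADAR, gave 13 members higher in MYC and 5 lower, where 56.5% of all genes were called, 30.6% higher and 25.9% lower. On the deposited scale, with the median gene shifted by more than log2 1, these were 22 and 1. The median log2 change was 0.35 over the members and 0.08 over all genes. All 5 tested members of the SLC7 family were higher in MYC than in Zab, among them SLC7A11, which was lower than WT under both labels after TMM scaling. The SLC7A1 call there was lost without MYC replicate 1 (limma adjusted p = 0.112) and was not made by DESeq2. SLC6A15 had the largest difference among the 26, at log2 2.08 ± 0.23 (SE; limma adjusted p = 1.05e-08).

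Libraries labelled MYC_Zab were set against each single label as well. Against MYC, 6 members were higher and 13 lower in MYC_Zab, where 44.6% of genes were called, 22% higher and 22.5% lower. Against Zab, 3 were higher and 9 lower, where 49.5% were called, 26.8% higher and 22.6% lower. Medians over the members were log2 -0.27 and 0.00, beside 0.03 and 0.06 over all genes. The deposited scale gave 4 higher and 15 lower against MYC, but 23 higher and 0 lower against Zab, and library totals gave 7 and 5 against Zab. The interaction asks whether the difference between MYC_Zab and MYC equals that between Zab and WT. It was called for 18 members, 5 above and 13 below 0, where 53.3% of genes were called, 29.3% above and 24% below. The comparisons share libraries, so their calls are not independent of each other.

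**Figure D3:**
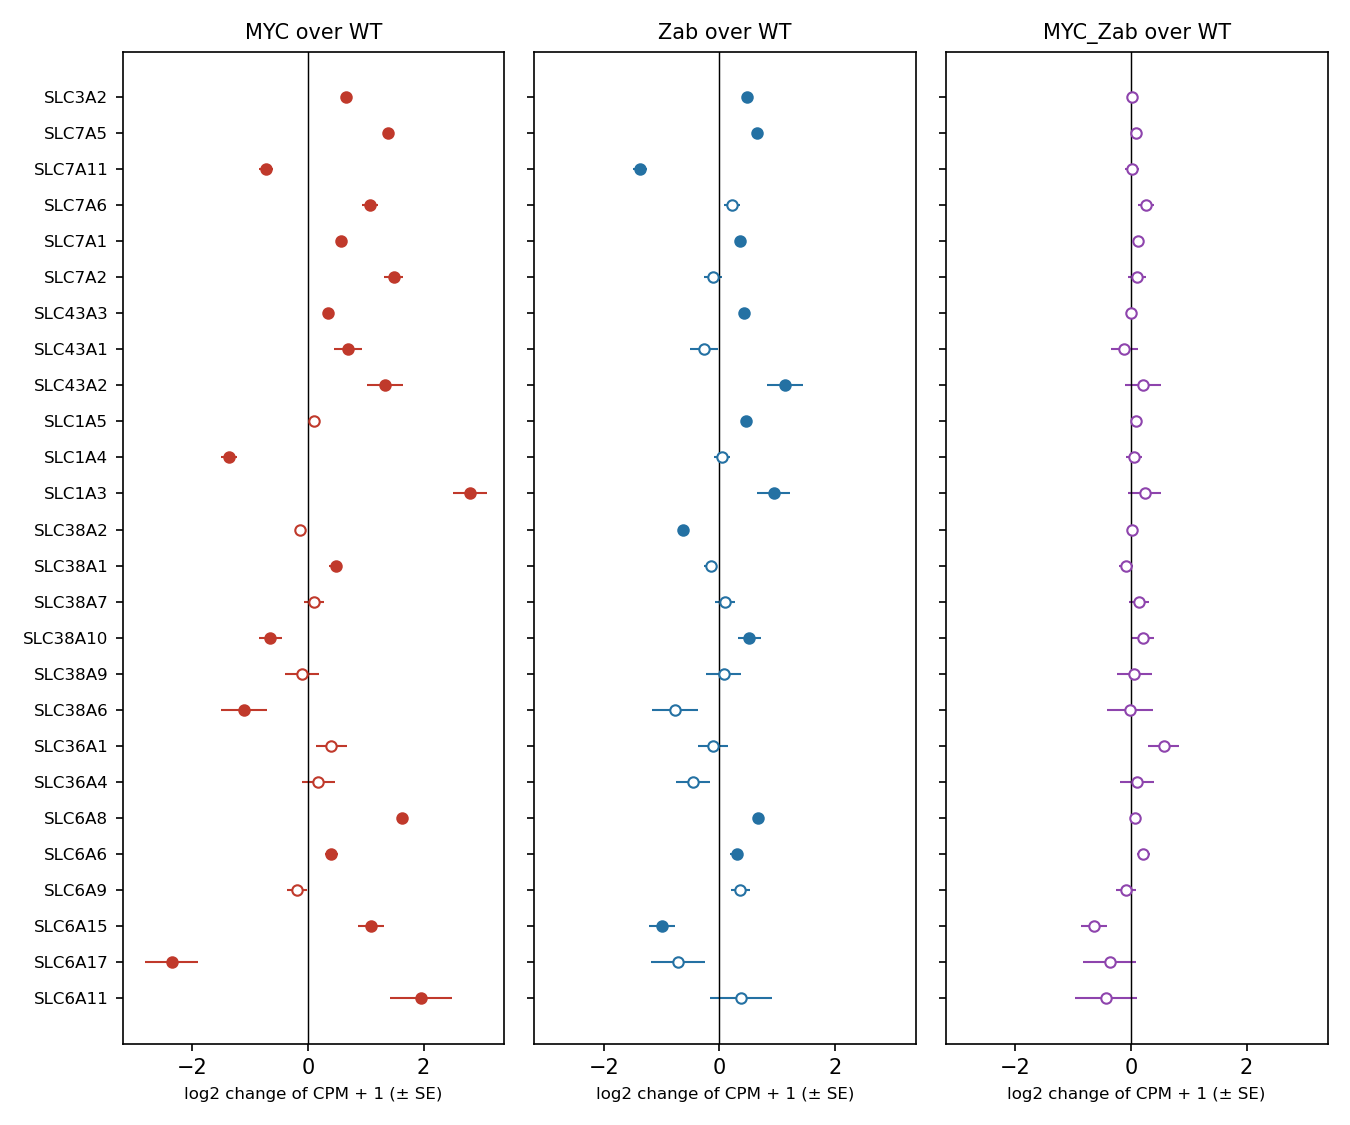
Log2 change of CPM + 1 with its standard error for the 26 tested members in MYC over WT, Zab over WT and MYC_Zab over WT, with filled points for limma adjusted p under 0.05. Filled points number 19 in the first panel and 13 in the second, and the third has 0 filled points and changes between -0.64 and 0.57.

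The heavy chain and its main light chain were both higher in libraries labelled MYC and Zab than in WT. SLC3A2 (4F2hc, also CD98; hg19 chr11:62623581-62656332, plus strand) is the heavy chain that carries several SLC7 light chains to the surface. It had 406 and 429 CPM in the libraries labelled MYC, 364 and 379 in those labelled Zab, 265 and 274 in those labelled MYC_Zab and 253 and 276 in those labelled WT. Every MYC library was above every Zab library, and both above MYC_Zab and WT, which overlapped. The log2 change was 0.65 ± 0.068 (SE; limma adjusted p = 6.54e-09) in MYC over WT and 0.49 ± 0.068 (SE; limma adjusted p = 1.03e-06) in Zab over WT, where the deposited scale gave -0.12. MYC over Zab gave a log2 change of 0.17 ± 0.068 (SE; limma adjusted p = 0.0359), a call lost without MYC replicate 1, MYC replicate 2 or Zab replicate 1, at limma adjusted p of 0.0576, 0.244 and 0.124. One library labelled Zab was counted on another transcript of nearly equal length.

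SLC7A5 (LAT1; hg19 chr16:87863629-87903113, minus strand) is the light chain that brings in leucine and other large neutral amino acids. Its level was 1813 and 1785 CPM in libraries labelled MYC, 1032 and 1132 CPM with the label Zab, 748 and 716 CPM with MYC_Zab and 693 and 685 CPM with WT. The MYC libraries were highest, Zab came between, and MYC_Zab lay just above WT, without overlap between any labels. Relative to WT the mean CPM was 2.61-fold in MYC, 1.57-fold in Zab and 1.06-fold in MYC_Zab. Zab over WT gave log2 0.65 ± 0.045 (SE; limma adjusted p = 1.91e-12), which became 0.04 on the deposited scale and was not called there. MYC over Zab gave 0.73 ± 0.045 (SE; limma adjusted p = 7.42e-14). For MYC_Zab over WT the change was 0.09 ± 0.045 (SE; limma adjusted p = 0.689). MYC_Zab over MYC was -1.30 ± 0.045 (SE; limma adjusted p = 5.64e-19) and the interaction -1.95 ± 0.063 (SE; limma adjusted p = 7.53e-20). SLC7A5 has partial copies elsewhere in the genome, so reads shared with them could not be placed with certainty.

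The other light chains took different courses. SLC7A6 (y+LAT2; hg19 chr16:68298429-68335722, plus strand) exchanges cationic for neutral amino acids. It had 106 and 107 CPM in the libraries labelled MYC, 56.6 and 60.2 in those labelled Zab, 59.7 and 60.6 in those labelled MYC_Zab and 46.7 and 53.3 in those labelled WT. MYC stood far above the rest, Zab and MYC_Zab overlapped, and WT lay just below them. Its log2 change was 1.08 ± 0.14 (SE; limma adjusted p = 2.28e-07) in MYC over WT and 0.22 ± 0.14 (SE; limma adjusted p = 0.178) in Zab over WT. SLC7A11 (xCT; hg19 chr4:139085251-139163503, minus strand) exports glutamate in exchange for cystine, the source of cysteine for glutathione. Its level was 69.4 and 72.5 CPM in libraries labelled MYC, 46.0 and 43.5 CPM with the label Zab, 112 and 125 CPM with MYC_Zab and 116 and 119 CPM with WT. Zab was lowest, MYC came next, and MYC_Zab and WT overlapped at the top. SLC7A11 fell 1.65-fold in MYC relative to WT, with a log2 change of -0.72 ± 0.12 (SE; limma adjusted p = 2.35e-05), and 2.62-fold in Zab, with -1.37 ± 0.12 (SE; limma adjusted p = 4.03e-10). On the deposited scale the first of these was -0.23 and not called. The interaction was 2.11 ± 0.17 (SE; limma adjusted p = 5.92e-11).

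Set against the heavy chain per kb of exon, the light chains changed their proportions. The ratio of SLC7A5 to SLC3A2 was 2.09 ± 0.105 in MYC, 1.41 ± 0.051 in Zab, 1.32 ± 0.072 in MYC_Zab and 1.26 ± 0.088 in WT (SD, n = 2 each). That ratio does not depend on the scaling of a library. The MYC ratios were above all others, while the ranges of Zab, MYC_Zab and WT lay close or overlapped. For SLC7A11 the ratio was 0.0389 ± 0.00036 in MYC, 0.0276 ± 0.0019 in Zab, 0.101 ± 0.0056 in MYC_Zab and 0.101 ± 0.0046 in WT. For SLC7A6 it was 0.0888 ± 0.0025, 0.0551 ± 0.00028, 0.0776 ± 0.00099 and 0.0656 ± 0.0021 in that order. These ratios compare newly made RNA, not proteins.

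**Figure D4:**
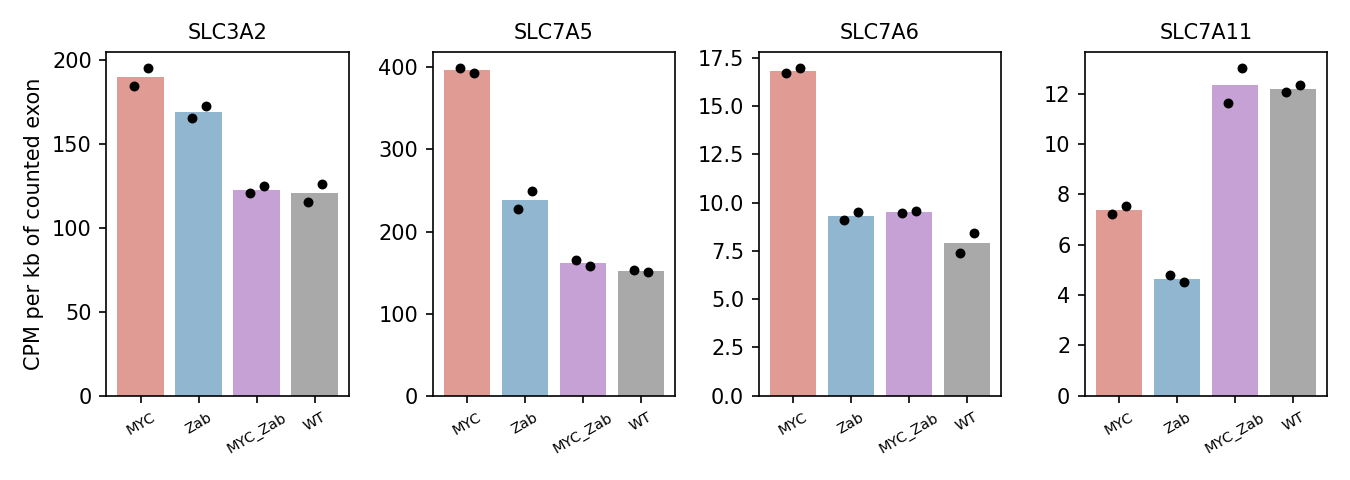
CPM per kb of counted exon for the heavy chain SLC3A2 and the light chains SLC7A5, SLC7A6 and SLC7A11, with bars for the mean of 2 libraries and a point for each library, on axes that start at 0 and differ in scale between panels. SLC3A2 and SLC7A5 descend from MYC through Zab to MYC_Zab and WT, whereas SLC7A11 is lowest in Zab, at 4.65 CPM per kb.

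Both tested cationic carriers were higher in MYC than in WT. SLC7A1 (CAT1; hg19 chr13:30083551-30169825, minus strand) takes up arginine and lysine. It had 338 and 325 CPM in the libraries labelled MYC, 284 and 287 in those labelled Zab, 248 and 236 in those labelled MYC_Zab and 229.8 and 215 in those labelled WT. The labels ran in the order MYC, Zab, MYC_Zab and WT without overlap, though MYC_Zab and WT lay close. SLC7A1 rose by log2 0.58 ± 0.072 (SE; limma adjusted p = 1.87e-07) in MYC over WT and 0.36 ± 0.072 (SE; limma adjusted p = 1.43e-04) in Zab over WT, but the deposited scale gave -0.24 in the second. SLC7A2 (CAT2; hg19 chr8:17354597-17428075, plus strand) carries the same substrates. Its level was 119 and 125 CPM in libraries labelled MYC, 36.5 and 42.9 CPM with the label Zab, 43.1 and 49.9 CPM with MYC_Zab and 49.6 and 37.2 CPM with WT, so MYC stood alone and the other labels lay together. The changes were 1.48 ± 0.16 (SE; limma adjusted p = 1.51e-08) in MYC over WT and -0.11 ± 0.16 (SE; limma adjusted p = 0.584) in Zab over WT. The interaction was -1.26 ± 0.23 (SE; limma adjusted p = 3.58e-05).

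All 3 SLC43 members rose in MYC relative to WT. SLC43A3 (hg19 chr11:57174427-57194594, minus strand), known for carrying purine bases rather than amino acids, had 274 and 299 CPM in the libraries labelled MYC, 276 and 329.9 in those labelled Zab, 221 and 228 in those labelled MYC_Zab and 209.7 and 242 in those labelled WT. The MYC and Zab libraries overlapped each other and lay above MYC_Zab and WT, which also overlapped. Its log2 change was 0.35 ± 0.085 (SE; limma adjusted p = 0.00154) in MYC over WT, not called without MYC replicate 2 (limma adjusted p = 0.0586), and 0.42 ± 0.085 (SE; limma adjusted p = 1.76e-04) in Zab over WT, where the deposited scale gave -0.18. SLC43A1 (LAT3; hg19 chr11:57252007-57283175, minus strand) lets branched-chain amino acids pass. It reached 33.6 and 36.3 CPM in libraries labelled MYC, 18.9 and 16.2 CPM with the label Zab, 21.3 and 17.9 CPM with MYC_Zab and 18.1 and 24.7 CPM with WT. Only MYC stood above the others. Its change of 0.70 ± 0.24 (SE; limma adjusted p = 0.0188) in MYC over WT was not called without MYC replicate 1, MYC replicate 2 or WT replicate 1, at limma adjusted p of 0.0704, 0.126 and 0.181. SLC43A2 (LAT4; hg19 chr17:1472562-1531710, minus strand), with the same kind of substrates, had 23.2 and 23.2 CPM in the libraries labelled MYC, 25.9 and 15.7 in those labelled Zab, 12.98 and 7.94 in those labelled MYC_Zab and 7.45 and 10.01 in those labelled WT. MYC and Zab overlapped and were above MYC_Zab and WT. It rose by log2 1.33 ± 0.31 (SE; limma adjusted p = 9.20e-04) in MYC over WT and 1.14 ± 0.31 (SE; limma adjusted p = 0.00340) in Zab over WT, and the Zab call was lost when Zab replicate 1 was left out (limma adjusted p = 0.0541). SLC43A2 was counted on 4 different transcripts across libraries.

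The SLC1 members moved apart from each other. SLC1A5 (ASCT2; hg19 chr19:47278140-47291851, minus strand) exchanges glutamine for other small neutral amino acids. It had 565 and 555 CPM in the libraries labelled MYC, 690.3 and 735 in those labelled Zab, 549.9 and 554 in those labelled MYC_Zab and 521 and 513 in those labelled WT. Zab was highest, while MYC, MYC_Zab and WT lay within a narrow range. The log2 change was 0.46 ± 0.051 (SE; limma adjusted p = 2.31e-08) in Zab over WT, against -0.14 on the deposited scale, and 0.11 ± 0.051 (SE; limma adjusted p = 0.0723) in MYC over WT. Without a library labelled Zab the MYC change was called, at limma adjusted p of 0.0360 and 0.0364. MYC over Zab gave -0.35 ± 0.051 (SE; limma adjusted p = 1.85e-06), against 0.76 on the deposited scale. SLC1A4 (ASCT1; hg19 chr2:65216533-65250999, plus strand), an exchanger of alanine, serine and cysteine, had 28.7 and 31.4 CPM in libraries labelled MYC, 79.0 and 83.8 CPM with the label Zab, 83.3 and 80.2 CPM with MYC_Zab and 83.9 and 74.4 CPM with WT. MYC was far below the other labels, which overlapped. It fell 2.64-fold in MYC relative to WT, a log2 change of -1.37 ± 0.14 (SE; limma adjusted p = 5.25e-09), with 0.04 ± 0.14 (SE; limma adjusted p = 0.827) in Zab over WT.

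SLC1A3 (GLAST, also EAAT1; hg19 chr5:36606708-36688436, plus strand) takes up glutamate and aspartate and is best known from astrocytes. Its level was 52.1 and 58.4 CPM in the libraries labelled MYC, 16.5 and 12.6 in those labelled Zab, 8.04 and 8.94 in those labelled MYC_Zab and 5.51 and 8.94 in those labelled WT. MYC stood well above Zab, which in turn lay above MYC_Zab and WT, and these overlapped. Relative to WT its mean CPM was 7.65-fold in MYC and 2.01-fold in Zab, with log2 changes of 2.80 ± 0.29 (SE; limma adjusted p = 6.74e-09) and 0.94 ± 0.29 (SE; limma adjusted p = 0.00877). Without WT replicate 1 the Zab change was 0.64 (limma adjusted p = 0.128), and without Zab replicate 1 it was 0.76 (limma adjusted p = 0.0516). The interaction was -3.51 ± 0.41 (SE; limma adjusted p = 4.57e-08), the largest in size among the 26 members. SLC1A3 was counted on 4 different transcripts.

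The SLC38 members, sodium-coupled carriers of glutamine and other neutral amino acids, also differed among themselves. SLC38A2 (SNAT2; hg19 chr12:46751971-46766556, minus strand), which cells raise when amino acids are scarce, had 422 and 423 CPM in the libraries labelled MYC, 297 and 306 in those labelled Zab, 457 and 486 in those labelled MYC_Zab and 464 and 470.2 in those labelled WT. Zab was lowest, MYC lay between, and MYC_Zab and WT overlapped. It fell in Zab over WT, with a log2 change of -0.63 ± 0.059 (SE; limma adjusted p = 9.74e-10), and stood at -0.14 ± 0.059 (SE; limma adjusted p = 0.0501) in MYC over WT, where the deposited scale gave 0.35. Without a library labelled Zab the MYC change was called, at limma adjusted p of 0.0233 and 0.0234, and edgeR on recovered reads called it as well, at an adjusted p of 0.0344. Its MYC_Zab over MYC change was 0.16 ± 0.059 (SE; limma adjusted p = 0.0328), against -0.07 on the deposited scale. That call was lost without MYC replicate 1, MYC replicate 2, MYC_Zab replicate 2 or WT replicate 1, at limma adjusted p of 0.127, 0.123, 0.281 and 0.0626. SLC38A1 (SNAT1; hg19 chr12:46576846-46662826, minus strand) reached 124 and 119.7 CPM in libraries labelled MYC, 79.0 and 78.0 CPM with the label Zab, 84.1 and 80.4 CPM with MYC_Zab and 85.6 and 88.7 CPM with WT. MYC stood above the rest, and Zab was just below the other labels. The changes were 0.48 ± 0.11 (SE; limma adjusted p = 0.00118) in MYC over WT and -0.15 ± 0.11 (SE; limma adjusted p = 0.296) in Zab over WT.

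Among the other SLC38 genes, SLC38A10 (hg19 chr17:79218611-79269107, minus strand) had 27.4 and 20.3 CPM in the libraries labelled MYC, 46.0 and 63.9 in those labelled Zab, 45.2 and 41.7 in those labelled MYC_Zab and 38.6 and 36.5 in those labelled WT. MYC was below every other library, and Zab above, although one MYC library was counted on a shorter transcript. It fell in MYC over WT, with a log2 change of -0.65 ± 0.20 (SE; limma adjusted p = 0.00814), and rose by 0.52 ± 0.20 (SE; limma adjusted p = 0.0290) in Zab over WT, against -0.07 in the second on the deposited scale. The MYC call was lost without MYC replicate 2 or WT replicate 1, at limma adjusted p of 0.157 and 0.0690, and the Zab call without Zab replicate 2, WT replicate 1 or WT replicate 2, at 0.286, 0.0745 and 0.128. SLC38A7 (SNAT7; hg19 chr16:58699013-58718235, minus strand), which exports glutamine and asparagine from lysosomes, had 47.8 and 40.8 CPM in libraries labelled MYC, 44.8 and 42.9 CPM with the label Zab, 47.0 and 43.2 CPM with MYC_Zab and 44.7 and 37.2 CPM with WT. The labels overlapped, and none of the 7 tests called it. SLC38A6 (hg19 chr14:61447832-61550451, plus strand) had 3.87 and 3.71 CPM in the libraries labelled MYC, 4.13 and 6.28 in those labelled Zab, 10.6 and 7.94 in those labelled MYC_Zab and 7.13 and 12.2 in those labelled WT. Its change in MYC over WT was -1.11 ± 0.40 (SE; limma adjusted p = 0.0246), with MYC below the other labels. That call was lost without MYC replicate 1, MYC replicate 2 or WT replicate 2, at limma adjusted p of 0.0929, 0.107 and 0.249. SLC38A9, the lysosomal carrier through which arginine is sensed for mTORC1, lay between 11.7 and 22.2 CPM and was called in none of the 7 tests.

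The 2 tested SLC36 carriers gave 1 call in the 7 tests. SLC36A1 (PAT1), which exports small amino acids from lysosomes, lay between 11.8 and 25.4 CPM over the libraries. The call was in MYC_Zab over Zab, at log2 0.68 ± 0.26 (SE; limma adjusted p = 0.0350), and that call was lost without MYC replicate 2, Zab replicate 1, MYC_Zab replicate 1 or MYC_Zab replicate 2, at limma adjusted p of 0.0511, 0.221, 0.213 and 0.0734. SLC36A4 (PAT4) lay between 8.38 and 18.3 CPM and was called in none of the 7 tests.

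Of the SLC6 members, the creatine carrier had the highest level per kb of exon. SLC6A8 (CT1; hg19 chrX:152953381-152962042, plus strand) takes up creatine, which is not an amino acid used in protein. Its level was 493 and 489 CPM in libraries labelled MYC, 229 and 273 CPM with the label Zab, 165 and 166 CPM with MYC_Zab and 145 and 171 CPM with WT. MYC was highest, Zab came next, and MYC_Zab and WT overlapped. Mean CPM relative to WT was 3.11-fold in MYC and 1.59-fold in Zab, with log2 changes of 1.63 ± 0.087 (SE; limma adjusted p = 8.87e-15) and 0.67 ± 0.087 (SE; limma adjusted p = 3.51e-07). The Zab change on the deposited scale was 0.06 and not called. The interaction was -2.23 ± 0.12 (SE; limma adjusted p = 1.05e-14). SLC6A8 has near-identical copies in the genome, so reads shared with them are uncertain.

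SLC6A6 (TauT; hg19 chr3:14444076-14530857, plus strand), the taurine carrier, had 144 and 143 CPM in the libraries labelled MYC, 142 and 125 in those labelled Zab, 123 and 128 in those labelled MYC_Zab and 122 and 94.8 in those labelled WT. MYC was above the other labels, although narrowly over Zab. It rose by log2 0.41 ± 0.11 (SE; limma adjusted p = 0.00411) in MYC over WT and 0.30 ± 0.11 (SE; limma adjusted p = 0.0278) in Zab over WT, against -0.30 in the second on the deposited scale. WT replicate 2 decided both calls, since without it the changes were 0.23 (limma adjusted p = 0.169) and 0.12 (limma adjusted p = 0.474). Without Zab replicate 1 the second was 0.21 (limma adjusted p = 0.177). SLC6A9 (GlyT1; hg19 chr1:44462155-44497134, minus strand), a glycine carrier, had 37.9 and 39.8 CPM in libraries labelled MYC, 65.4 and 50.8 CPM with the label Zab, 38.7 and 45.9 CPM with MYC_Zab and 43.7 and 45.4 CPM with WT. Zab was highest and did not overlap the rest, while MYC overlapped MYC_Zab. Its change was 0.36 ± 0.17 (SE; limma adjusted p = 0.0790) in Zab over WT and -0.19 ± 0.17 (SE; limma adjusted p = 0.382) in MYC over WT. MYC over Zab gave -0.56 ± 0.17 (SE; limma adjusted p = 0.00708), against 0.52 on the deposited scale. That call was lost without MYC replicate 1 or Zab replicate 1, at limma adjusted p of 0.0556 and 0.0957.

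SLC6A15 (B0AT2; hg19 chr12:85253270-85306578, minus strand), a carrier of branched-chain amino acids and proline, had 71.0 and 67.8 CPM in the libraries labelled MYC, 19.5 and 12.6 in those labelled Zab, 21.8 and 18.6 in those labelled MYC_Zab and 27.2 and 37.5 in those labelled WT. MYC was highest, WT came next, and Zab and MYC_Zab were lowest. The change was 1.09 ± 0.23 (SE; limma adjusted p = 2.58e-04) in MYC over WT and -0.99 ± 0.23 (SE; limma adjusted p = 7.17e-04) in Zab over WT. Libraries were counted on 2 transcripts of this gene. Both remaining tested members were low. SLC6A11, a carrier of the neurotransmitter GABA, had a highest level of 10.6 CPM and a log2 change of 1.95 ± 0.53 (SE; limma adjusted p = 0.00382) in MYC over WT, a call lost without MYC replicate 1 (limma adjusted p = 0.0580). Libraries differed in which of 2 transcripts of very unequal length was counted for it. Both MYC libraries had the longer, both Zab libraries the shorter, and WT and MYC_Zab were split. Per kb of counted exon it had 0.957 and 0.849 CPM in MYC and 0.279 and 1.24 in Zab. The values were 0.0704 and 0.353 in MYC_Zab and 0.117 and 0.593 in WT. MYC stayed above WT there but overlapped Zab, and the part of transcript length in its calls was not tested. SLC6A17, a vesicle carrier known from neurons, had a highest level of 9.72 CPM and changed by log2 -2.36 ± 0.46 (SE; limma adjusted p = 1.36e-04) in MYC over WT.

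The remaining 33 members had too few reads to be tested. Of these, 12 had 0 reads in all 8 libraries, which over 25013731 reads allows up to 0.1199 CPM without scaling. That limit covers counting error only and takes reads as independent, so it is too low where reads come in twos. Among the 12 were SLC1A2, SLC1A7, SLC7A4, SLC7A9, SLC36A3 and SLC38A8. The other 21 had reads, with at most 12 in a library. SLC1A6 had at most 12 reads in a library, SLC6A16 had 10, SLC38A4 had 8 and SLC1A1 had 6. The light chains SLC7A7, SLC7A8 and SLC7A10, the heavy chain SLC3A1, and SLC7A3, SLC38A3, SLC38A5 and SLC6A12 had at most 4. SLC6A4, SLC6A5, SLC6A7, SLC6A13, SLC6A18, SLC6A19, SLC6A20, SLC7A13 and SLC36A2 had at most 2. With no filter on low values the 21 entered the fit, and 6 were called by limma in at least 1 of the 7 tests. In MYC over Zab, SLC1A6, SLC38A4 and SLC7A3 were higher and SLC38A5 lower. SLC38A4 was higher and SLC38A5 and SLC7A7 were lower in MYC_Zab over Zab, SLC38A5 and SLC7A7 were higher in Zab over WT, and SLC3A1 and SLC7A7 were called in the interaction. These 6 had 8 to 30 reads over all 8 libraries, so the calls rest on few reads. The untested members included the dopamine, serotonin and noradrenaline carriers of neurons, SLC6A3, SLC6A4 and SLC6A2.

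Genes that act on or with the carriers were read from 5 lists, chosen with earlier results of these data known. The amino acid response through GCN2 and ATF4 had 13 of 29 tested genes higher and 5 lower in MYC over WT, with a median log2 change of 0.22. In Zab over WT it had 14 higher and 7 lower, with a median of 0.07. The shares called over all genes, 44.1% and 49.6%, and the medians over all genes, -0.01 and -0.08, hold beside every list. DDIT4, an inhibitor of mTORC1, rose by log2 1.98 ± 0.097 (SE; limma adjusted p = 1.58e-15) in MYC over WT, and PPP1R15A, which restores translation after stress, fell, with a change of -2.06 ± 0.13 (SE; limma adjusted p = 2.09e-13). The transcription factor ATF5 had 123 ± 11.3 CPM in MYC and 42.0 ± 0.756 CPM in WT (SD, n = 2). In Zab over WT, TRIB3, a pseudokinase target of ATF4, rose by log2 1.83 ± 0.12 (SE; limma adjusted p = 1.21e-12), and DDIT3, the stress factor CHOP, by 1.80 ± 0.31 (SE; limma adjusted p = 2.37e-05).

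Components that signal amino acids to mTORC1 had 4 of 43 higher and 10 lower in MYC over WT, and 12 higher and 11 lower in Zab over WT, with medians of log2 -0.10 and -0.02. RPTOR, the scaffold of mTORC1, averaged 201 ± 9.77 CPM in MYC and 80.5 ± 2.10 CPM in WT (SD, n = 2). SESN3, a sestrin, changed by -1.46 ± 0.34 (SE; limma adjusted p = 9.32e-04) in MYC over WT. SESN1, another sestrin, changed by -2.15 ± 0.34 (SE; limma adjusted p = 6.09e-06) in Zab over WT, and MIOS, a subunit of the activator complex GATOR2, by -1.73 ± 0.17 (SE; limma adjusted p = 3.13e-09).

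Enzymes that use glutamine or make glutathione had 7 of 21 higher and 3 lower in MYC over WT, and 7 higher and 5 lower in Zab over WT, with medians of log2 0.23 and 0.05. GCLM, a subunit of the first enzyme of glutathione synthesis, had changes of -1.28 ± 0.16 (SE; limma adjusted p = 3.01e-07) in MYC and -1.22 ± 0.16 (SE; limma adjusted p = 6.63e-07) in Zab, both relative to WT. PPAT, which uses glutamine in purine synthesis, rose by log2 1.02 ± 0.13 (SE; limma adjusted p = 2.55e-07) in MYC over WT. Other amino acid carriers, mostly of mitochondria and lysosomes, had 6 of 16 higher and 3 lower in MYC over WT, and 3 and 3 in Zab over WT. SLC25A22, a mitochondrial glutamate carrier, rose by 1.69 ± 0.16 (SE; limma adjusted p = 1.70e-09) in MYC and 0.90 ± 0.16 (SE; limma adjusted p = 4.34e-05) in Zab. Proteins that partner with carriers or control their place at the membrane had 3 of 12 higher and 5 lower under each label relative to WT. CD44, which can stabilise xCT at the surface, averaged 135 ± 1.26 CPM in MYC and 401 ± 20.2 CPM in WT (SD, n = 2). NEDD4L, a ubiquitin ligase that removes carriers, averaged 89.2 ± 1.64 CPM in MYC and 241 ± 24.3 CPM in WT (SD, n = 2). In Zab the means of CD44 and NEDD4L were above WT, at 461 ± 30.6 and 357 ± 2.40 CPM (SD, n = 2). In MYC_Zab over WT none of the 5 lists had a called gene by limma.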

How the data were processed

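Exon reads of 19414 coding genes were analysed in 8 TT-seq libraries, 2 for each of 4 genotype labels. Builds hg19 and dm6 and the tools bedtools 2.29.2, SAMtools 1.11, STAR and Trim Galore 0.6.6 are named, with no role given, per the submitters' processing notes. Per the file headers, HOMER's analyzeRepeats counted tags over exons on the opposite strand, unscaled, with 1 transcript kept per gene, which was the same in all libraries for 10453 genes. The deposited values are a signal and not whole counts: each is a whole multiple of a step of 0.204 to 0.259 per library. Dividing by it gave whole reads within 0.02 for at least 99.9% of values, so the values are reads times a factor per library. The sources used here do not give what that factor rests on. Reads mostly came in twos, with 77.2% to 82.7% of values from 1 to 20 even.

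From these values CPM was computed with TMM scaling (edgeR 4.0.16) and log2(CPM + 1) fitted by limma 3.58.1 in R 4.3.3 over 11985 genes that passed filterByExpr at 10 reads. All 8 libraries entered one fit on label, with 4 residual degrees of freedom and Benjamini-Hochberg adjustment over all tested genes in each comparison, at 0.05. Each gene's variance was moderated by eBayes with a trend on level. The p-values and standard errors therefore also draw on the spread of other genes, beyond those 4 degrees of freedom. Log2 changes understate those of low genes, and folds are ratios of mean CPM. Alternatives were other pseudocounts, filters, scalings, edgeR and DESeq2 1.42.0 on recovered reads, a replicate block, pairs taken as 1 sample, and leaving out each library.

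The families, and so the members, and the gene lists were chosen with earlier results of these data known. Full values were given for members with a mean of at least 20 CPM, or called with a log2 change of at least 1 in size and a mean of at least 5 CPM. From other lists at most 3 genes with the largest called changes and at least 5 CPM were named per comparison. Coordinates are hg19, from the files, except those of printed sequences.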

Additional observations from a re-analysis of the deposited data

Results flagged for a closer look

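For 18 of the 26 tested members, the difference between MYC_Zab and MYC was not the same as that between Zab and WT, by the interaction term in limma (adjusted p under 0.05), where 53.3% of all tested genes were called. Below 0 stood SLC1A3 at log2 -3.51, SLC6A11 at -2.76, SLC43A2 at -2.25, SLC6A8 at -2.23, SLC7A5 at -1.95, SLC7A2 at -1.26 and SLC3A2 at -1.11. SLC7A6 at -1.04, SLC7A1 at -0.81, SLC43A3 at -0.77, SLC6A6 at -0.49, SLC1A5 at -0.48 and SLC38A1 at -0.41 were also below 0. Above 0 stood SLC6A17 at 2.70, SLC7A11 at 2.11, SLC38A6 at 1.85, SLC1A4 at 1.37 and SLC38A2 at 0.79. SLC7A11 was thus lower in Zab than in WT and higher in MYC_Zab than in MYC. For SLC6A11 the counted transcript was longer in MYC than in Zab, and the part of that in its value was not tested. Calls for SLC6A6 and SLC38A6 were lost without WT replicate 2, at limma adjusted p of 0.114 and 0.0568, and that for SLC38A1 without any one of the MYC, MYC_Zab or WT libraries, at 0.0518 to 0.106. On the deposited scale SLC1A5, SLC6A6 and SLC38A1 were not called, at -0.10, -0.11 and -0.04. By its definition the interaction equals the change in MYC_Zab over WT less those in MYC over WT and Zab over WT. With 0 members called in MYC_Zab over WT, it largely restates the single-label changes with the sign turned. For SLC7A5 the 3 changes were 0.09, 1.38 and 0.65 in that order. The libraries labelled MYC_Zab and WT both had high ADAR, and MYC was no higher in MYC_Zab than in WT. The part of this in the interaction was not tested. Groups of 2 libraries are too small to single out a library as an outlier.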

How the results depend on the processing

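Over 20 alternatives, the 26 members gave 3528 values, of which 3314 kept the side of the threshold, with direction also kept where called. Changes called in neither fit were not checked for direction. Some of them turned: SLC38A9 in MYC over WT ran from log2 -0.52 to 0.34 when a library was left out. Of the rest, 119 lost the call, 68 gained it, and 27 turned direction with a call in the main fit or the alternative, all on the deposited scale. The turned log2 changes were 0.35 for SLC38A2 in MYC over WT, 0.27 for SLC43A3 in MYC_Zab over WT and -0.066 for SLC38A2 in MYC_Zab over MYC. In Zab over WT they were -0.14 for SLC1A5, -0.12 for SLC3A2, -0.24 for SLC7A1, -0.18 for SLC43A3, -0.30 for SLC6A6, -0.37 for SLC7A6, -0.56 for SLC1A4, -0.49 for SLC38A7 and -0.073 for SLC38A10. In MYC over Zab they were 0.76 for SLC1A5, 1.03 for SLC43A3, 0.52 for SLC6A9 and 0.86 for SLC38A9. In MYC_Zab over Zab they were 0.32 for SLC7A5, 0.51 for SLC1A5, 0.42 for SLC3A2, 0.64 for SLC7A1, 0.28 for SLC6A8, 0.46 for SLC43A3, 0.79 for SLC6A6, 0.42 for SLC6A9, 0.55 for SLC38A10, 0.11 for SLC1A3 and 0.81 for SLC38A9. With the same transcript in all libraries only 12 members were tested, and the calls numbered 10 for MYC over WT, 7 for Zab over WT, 11 for MYC over Zab, 9 for MYC_Zab against MYC, 7 for MYC_Zab against Zab and 10 for the interaction. The deposited scale called 10 in MYC_Zab over WT and 23 in MYC_Zab over Zab. With the WT and MYC_Zab pairs as 1 sample each, MYC_Zab over Zab had 7, and calls over all genes were 3471 in MYC over WT (5280 otherwise), 3955 for Zab (5939 otherwise), and 0 for MYC_Zab (69 otherwise). In that last comparison edgeR called 146 genes, DESeq2 118, no filter 17 and the deposited scale 1752, and in MYC_Zab over Zab the deposited scale called 9044 against 5928.

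Leaving out 1 library gave 15 to 21 called members for MYC against WT, 11 to 13 for Zab against WT, 0 to 0 for MYC_Zab against WT, 14 to 19 for MYC against Zab, 15 to 19 for MYC_Zab against MYC, 8 to 12 for MYC_Zab against Zab and 16 to 19 in the interaction. A lone library left in a group was assumed to vary like the other groups. In MYC_Zab over MYC the call for SLC38A6 was lost without any one of those 4 libraries, at limma adjusted p of 0.0594 to 0.202. Same-numbered libraries did not deviate together (correlations of -0.0262 to 0.00992). Since replicates differed by about counting error, these correlations cannot show whether the numbers pair the libraries. With the replicate block the calls were 19 for MYC against WT, 13 for Zab against WT, 0 for MYC_Zab against WT, 18 for MYC against Zab, 19 for MYC_Zab against MYC, 11 for MYC_Zab against Zab (SLC1A3 lost, adjusted p = 0.0503) and 18 for the interaction. Depth limits the 33 untested members and those under 20 CPM most.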

Other observations

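Longer genes were lower in libraries labelled Zab relative to WT. Across the 11985 tested genes Spearman's rho between the span of the gene and its log2 change in Zab over WT was -0.30, and across the 26 tested members it was -0.23, both as descriptions, since the genes share libraries. The members' median span was 51102.5 bases, against 29460 over all tested genes. By the transcript most often counted, SLC7A11, the member with the largest fall in Zab, spans 78253 bases. SLC6A15 and SLC38A2, the others called lower, span 53309 and 14586. Among the 10 called higher, SLC1A3, SLC7A1 and SLC6A6 span more than SLC7A11, at 81729, 86275 and 86782 bases. In MYC over WT rho was 0.03 over the members and -0.06 over all genes.

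Replicates of the members differed by about counting error. The chi-square per member of the recovered reads was 0.877 in the MYC pair, 2.12 in the Zab pair, 1.29 in the MYC_Zab pair and 2.63 in the WT pair, where reads that come in twos give 2. The highest single values were 10.5 for SLC6A6 in the WT pair and 7.26 for SLC43A3 in the Zab pair.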
